A study of Mus musculus with 9 samples.

Results

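Polycomb repressive complex 2 (PRC2) subunits and the H3K27 demethylases were followed as 10 genes, chosen by name from the known composition of the complex and of the opposing enzyme family: Ezh2, Ezh1, Eed, Suz12, Rbbp7, Jarid2, Mtf2, Phf19, Kdm6a and Kdm6b. The choice was made with earlier results of these data known. These genes were 10 of the 35288 genes in the expression table, and all 10 were among the 13697 genes with enough reads to be tested. RNA was sequenced in bulk from T15, a murine line derived from a Smarcb1-negative peripheral T cell lymphoma (PTCL) model, with 3 libraries in each of 3 groups. The first group was T15 control cells. The second was T15 treated with SAHA (vorinostat, an inhibitor of histone deacetylases) at 1 µM over 72 h. The third was Smarcb1-RE, T15 cells transduced with a lentiviral pInducer20 plasmid carrying Smarcb1 cDNA, selected with G418 and induced with doxycycline, which is labelled as 0.5 µg/µl, for 72 h.

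All 3 groups share the loss of endogenous Smarcb1, a core subunit of the SWI/SNF chromatin remodelling complexes, and all come from 1 cell line. The labels describe a vehicle arm for SAHA and a control plasmid arm for re-expression but contain a single control group without naming its treatment, and the study's text calls these cells untreated. Effects of transduction, G418 and doxycycline therefore cannot be told apart from those of Smarcb1. For SAHA at the concentration used here, the study reports strong apoptosis of this line, with most cells dead. The part of dying or surviving cells in the SAHA values was not tested. Stable clones are mentioned in the study's methods, and the labels do not say which of them the 3 Smarcb1-RE libraries represent.

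Smarcb1 itself was counted 2, 5 and 8 times in control cells, 7, 13 and 3 times after SAHA and 151, 147 and 142 times in Smarcb1-RE, which follows the labels. Library totals ranged from 20900477 to 24941494 counts, so that 3 counts correspond to 0.123 to 0.133 CPM, the count scaled to a common library size. Control replicate 1 stood somewhat apart, with a chi-square per gene of 13.4 and 15 against the other controls, beside 2.12 to 4.69 for every other pair of replicates, and each call was repeated without it. Of the T cell markers, Cd4 was at 0 in every library and Cd2, Cd5 and Thy1 had at most 6 counts in any, whereas genes of the T cell receptor complex and Cd8a were abundant. The summed level of the 14 T cell markers was 4041.7 to 4323.9 CPM in control, 4340.8 to 4394.0 CPM in SAHA and 3980.7 to 4041.8 CPM in Smarcb1-RE. Among them Cd247 was lower with SAHA and with Smarcb1-RE (log2 fold changes of -0.61 and -0.28), as was Trbc2 (-0.49 and -0.35), while Cd8a was higher (0.55 and 0.20) and Lck was higher with Smarcb1-RE (0.69) and not called with SAHA (-0.06). Other chains differed: Cd3g and Cd8b1, named after their values were seen, were higher with SAHA (0.40 and 0.23) and lower with Smarcb1-RE (-0.35 and -0.22). Of the 10 markers tested, 3 were higher and 4 lower with SAHA, and 2 higher and 5 lower with Smarcb1-RE, where 66.9% and 77.8% of all tested genes were called. The summed level of 20 markers of other cell types was 158.0 to 164.0, 119.0 to 132.8 and 203.3 to 207.1 CPM in the same order. Most of this sum was Pecam1, at 146.2 to 154.3 CPM in control, 106.4 to 121.5 CPM with SAHA and 128.9 to 130.6 CPM with Smarcb1-RE, and the higher sum in Smarcb1-RE came with Pdgfra, which was at 6.08 to 8.8, 5.86 to 5.98 and 65.8 to 68.0 CPM. Pax5 had 0, 6 and 1 counts in control, 22, 11 and 20 with SAHA and 89, 92 and 88 with Smarcb1-RE. Epcam had 29, 17 and 24 counts in control, 54, 69 and 77 with SAHA and 3, 0 and 2 with Smarcb1-RE, and Col1a1 had at most 25 counts in any library. Of these 20, 3 were at 0 in all control libraries, 5 in all SAHA libraries and 7 in all Smarcb1-RE libraries. The part of these marker shifts in the values below was not tested, and in bulk RNA fewer cells of a type and less RNA per cell cannot be told apart.

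PRC2 places methyl groups on lysine 27 of histone H3 (H3K27), a mark of silenced genes. Its catalytic subunit is Ezh2 or the less active Ezh1, held together with Eed, which reads the mark, with the scaffold Suz12 and with the histone-binding protein Rbbp7 or Rbbp4. Accessory proteins divide the complex into alternative forms: Jarid2 belongs to one, and the Polycomb-like proteins Mtf2, Phf19 and Phf1 to the other. Kdm6a (UTX) and Kdm6b (JMJD3) remove the mark, and SWI/SNF complexes are known to oppose Polycomb at many genes.

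Promoter sequences are shown for 5 of the genes, those with letters of an E2F site (Ezh2, Suz12 and Phf19) and those with the largest changes between groups (Jarid2 and Rbbp7). They come from RefSeq (GRCm38.p6), where 9 of the 10 genes had an entry, with 11 promoters in all, and none was found for Kdm6b. Each runs from 230 bases before the transcript start to 15 bases after it, read on the strand of the gene, and capitals mark matches to 3 searched motifs. These were E2F (TTTGGCGC, TTTCGCGC, TTTCCCGC or TTTGGCGG), NF-Y (CCAAT) and SP/KLF (GGGCGG), on both strands, and a CRE (TGACGTCA) was searched as well. Only the first of the promoters listed for Jarid2 is shown.
Ezh2, chr6:47595016-47595260, minus strand: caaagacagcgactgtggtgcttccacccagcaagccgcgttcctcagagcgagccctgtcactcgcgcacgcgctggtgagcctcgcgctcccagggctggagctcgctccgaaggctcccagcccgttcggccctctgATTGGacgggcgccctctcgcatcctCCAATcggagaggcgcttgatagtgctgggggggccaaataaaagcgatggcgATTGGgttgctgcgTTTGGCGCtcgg
Suz12, chr11:79992876-79993120, plus strand: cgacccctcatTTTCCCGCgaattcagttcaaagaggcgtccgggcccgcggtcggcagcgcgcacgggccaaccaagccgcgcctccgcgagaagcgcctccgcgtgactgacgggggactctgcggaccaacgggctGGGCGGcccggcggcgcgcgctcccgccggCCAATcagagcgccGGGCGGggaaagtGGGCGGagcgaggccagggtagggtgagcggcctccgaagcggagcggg
Phf19, chr2:34913962-34914206, minus strand: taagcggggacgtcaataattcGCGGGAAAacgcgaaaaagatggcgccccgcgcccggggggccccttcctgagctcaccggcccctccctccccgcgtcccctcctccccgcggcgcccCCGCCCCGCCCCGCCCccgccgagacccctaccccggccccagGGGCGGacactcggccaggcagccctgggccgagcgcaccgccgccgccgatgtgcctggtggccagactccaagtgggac
Jarid2, chr13:44730544-44730788, plus strand: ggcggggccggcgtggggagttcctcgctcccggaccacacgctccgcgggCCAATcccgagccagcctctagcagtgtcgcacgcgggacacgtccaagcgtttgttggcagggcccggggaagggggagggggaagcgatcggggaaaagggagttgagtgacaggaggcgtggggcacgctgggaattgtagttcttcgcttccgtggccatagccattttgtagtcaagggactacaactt
Rbbp7, chrX:162760142-162760386, plus strand: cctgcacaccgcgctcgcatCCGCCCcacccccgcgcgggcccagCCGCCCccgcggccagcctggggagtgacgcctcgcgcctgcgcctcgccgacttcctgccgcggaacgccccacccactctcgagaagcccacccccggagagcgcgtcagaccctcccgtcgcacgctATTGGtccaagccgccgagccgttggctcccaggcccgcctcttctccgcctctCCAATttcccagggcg

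The E2F letters were present in the full 300-base entries of 3 of these genes and in 2.4% of all 32851 promoters. With the first transcribed base as position 1, they lay at position 4 of Ezh2, at position -219 of Suz12 and, on the opposite strand, at position -208 of Phf19, and they overlapped no other searched motif. CCAAT was found in 6 genes and in 37.4% of all promoters, and Ezh2 held it 3 times, at positions -90, -64 and -11. The SP/KLF letters were found in 6 genes and in 35.7% of all promoters, and the CRE letters in 0 genes and in 1.8% of all promoters. A match is a description of the letters and not a binding site.

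In control cells the levels of the 10 genes differed widely when expressed per kilobase of annotated exon. Rbbp7 was the highest, at 241.4 ± 5.43 CPM per kb (SD, n = 3), followed by Ezh2 at 70.1 ± 2.96 and Suz12 at 66.2 ± 3.38. The values of Ezh2 and Suz12 overlapped between libraries, whereas no other neighbours in the order did. Below them came Eed at 30.5 ± 2.24, Mtf2 at 14.9 ± 0.56, Phf19 at 10.0 ± 0.194 and Ezh1 at 8.28 ± 0.228 CPM per kb. The demethylases Kdm6b and Kdm6a stood at 7.31 ± 0.95 and 4.57 ± 0.341 CPM per kb, and Jarid2 was the lowest at 0.752 ± 0.0724. With the longest transcript in place of all exons, Phf19 and Ezh1 changed places, and the rest of the order was unchanged. The distances between genes did depend on the length used. By the longest transcript Rbbp7 was at 313.0 ± 7.03, Ezh2 at 168.0 ± 7.08 and Suz12 at 74.9 ± 3.82 CPM per kb, so that Ezh2 and Suz12 were no longer close.

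**Figure D1:**
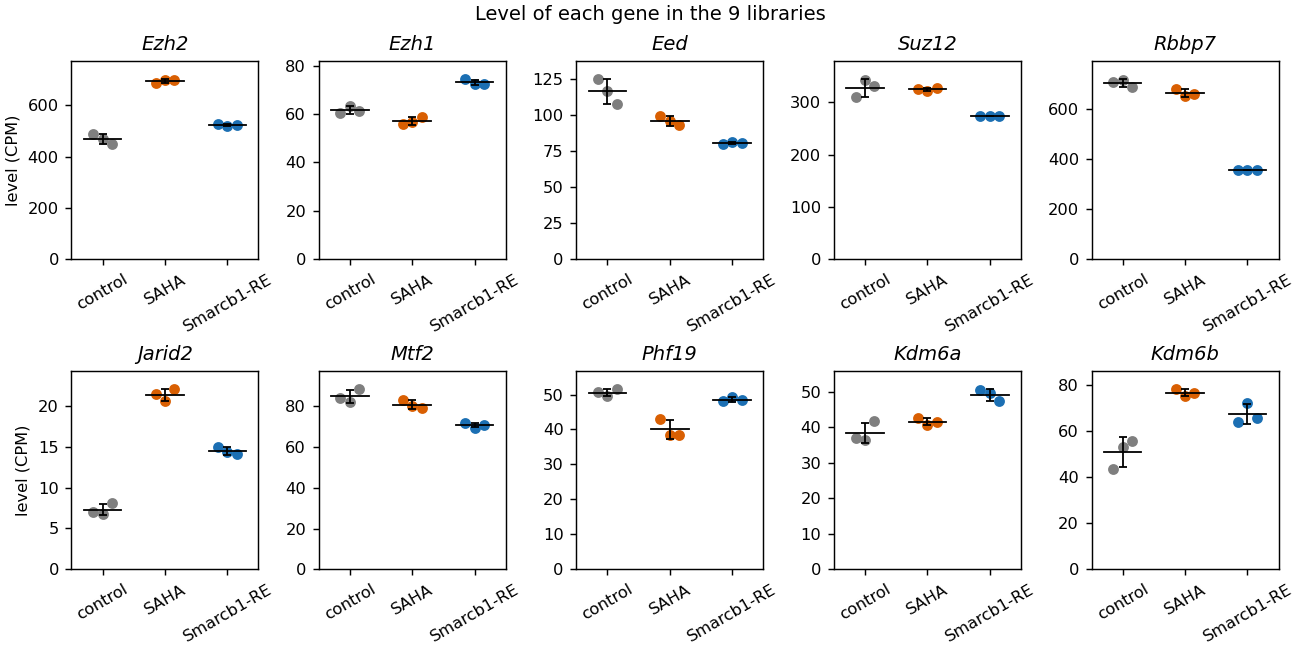
Level of each gene in CPM (counts scaled to a common library size, y axis from 0) in the 3 control, 3 SAHA and 3 Smarcb1-RE libraries; points are libraries, horizontal lines are means and bars are the SD. Jarid2 lay at 6.76 to 8.1 CPM in control and at 20.6 to 22.0 CPM in SAHA, and Rbbp7 fell from 684.6 to 714.8 CPM in control to 354.0 to 355.9 CPM in Smarcb1-RE.

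With SAHA, Ezh2, Jarid2 and Kdm6b rose and Ezh1, Eed and Phf19 fell. In Smarcb1-RE, Ezh2, Ezh1, Jarid2, Kdm6a and Kdm6b rose and Eed, Suz12, Mtf2 and Rbbp7 fell. With SAHA, 3 genes were higher, 3 lower and 4 not called at an adjusted p under 0.05 (edgeR quasi-likelihood test, Benjamini-Hochberg adjustment over all 13697 genes), against a background of 66.9% of tested genes called (32.6% higher and 34.3% lower). With Smarcb1-RE, 5 genes were higher, 4 lower and 1 not called, against a background of 77.8% (39.2% higher and 38.6% lower). The libraries of the groups did not overlap for 7 genes with SAHA, where 68.7% of all tested genes did not, and for all 10 with Smarcb1-RE, where the share was 79.5%. The median log2 fold change of the 10 genes was -0.04 with SAHA and 0.05 with Smarcb1-RE, beside 0.00 and 0.01 over all tested genes. The shares of the 10 genes that were called lay near the background, and nothing particular to them is read from the counts. These comparisons share the same control libraries.

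Ezh2 (chromosome 6, 47530139 to 47595341, minus strand, GRCm38) encodes the main methyltransferase of the complex. Its level was 488.5, 467.6 and 449.0 CPM in the control libraries, 686.3, 699.6 and 699.6 CPM with SAHA, and 525.8, 519.0 and 525.3 CPM with Smarcb1-RE. Every SAHA library was above every other library, and every Smarcb1-RE library was above every control. The log2 fold change of Ezh2 against control was 0.57 (SE 0.04, adjusted p = 7.64e-08, 1.48-fold) with SAHA and 0.16 (SE 0.04, adjusted p = 0.0023, 1.12-fold) with Smarcb1-RE. These changes were larger than those of 68.2% and of only 16.5% of tested genes, in that order. The difference between the treatments was itself called, with Smarcb1-RE 0.41 lower than SAHA on the log2 scale, a log2 fold change of -0.41 (SE 0.04, adjusted p = 7.77e-07). Scaled by library totals alone, the increase of Ezh2 with Smarcb1-RE was 0.32 on the log2 scale and the difference between the treatments -0.25, both still called.

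Ezh1 (chromosome 11, 101191115 to 101226463, minus strand), the alternative methyltransferase that prevails in many resting cells, moved differently. Control libraries held 60.3, 63.5 and 61.1 CPM, SAHA libraries 55.8, 56.7 and 59.0 CPM and Smarcb1-RE libraries 74.5, 72.3 and 72.5 CPM. The 3 groups did not overlap, with SAHA lowest and Smarcb1-RE highest. With Smarcb1-RE Ezh1 was higher by 0.25 on the log2 scale (SE 0.04, adjusted p = 0.000118), and by 0.40 with library totals alone. The decrease with SAHA was smaller, a log2 fold change of -0.11 (SE 0.04, adjusted p = 0.0347), larger than the change of only 16.4% of tested genes. It was no longer called by DESeq2 (-0.10 on the log2 scale), in separate fits to each pair of groups, with at least 10 counts required in every library, with the replicate block (adjusted p = 0.0547) or without control replicate 2, control replicate 3, SAHA replicate 1 or SAHA replicate 2, and over all left-out libraries it lay between -0.13 and -0.09.

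The balance of the 2 methyltransferases was read within each library as the ratio of Ezh1 to Ezh2 per kb of exon. This ratio was 0.111, 0.122 and 0.122 in control, 0.073, 0.0727 and 0.0757 with SAHA and 0.127, 0.125 and 0.124 with Smarcb1-RE. Its level depends on the length used: the mean log2 ratio in control was -3.08, and -3.52 with the longest transcript. Every SAHA ratio was below every control ratio, and every Smarcb1-RE ratio was above them. The ratio was 1.6-fold lower with SAHA than in control (difference of -0.68 in log2 ratio) and 0.09 higher with Smarcb1-RE in log2 ratio. Between the treatments it was 1.7-fold higher with Smarcb1-RE. Each difference gave p = 0.1 in a two-sided exact permutation test, the smallest that 3 against 3 libraries allow.

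Eed (chromosome 7, 89954654 to 89980983, minus strand), which binds the trimethylated mark and stimulates the enzyme, was lower with both perturbations. Its level was 125.0, 116.9 and 107.9 CPM in control, 99.2, 95.9 and 92.9 CPM with SAHA and 79.7, 81.7 and 80.8 CPM with Smarcb1-RE. The groups formed 3 separate steps with no overlap. Eed had a log2 fold change of -0.28 (SE 0.05, adjusted p = 0.000379) with SAHA and of -0.53 (SE 0.05, adjusted p = 9.57e-07) with Smarcb1-RE. Smarcb1-RE lay below SAHA by -0.25 (SE 0.05, adjusted p = 0.000843), a difference that was -0.09 and not called with library totals alone.

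Suz12 (chromosome 11, 79993106 to 80034123, plus strand), the scaffold on which the complex assembles, was lower in Smarcb1-RE. It measured 309.5, 342.5 and 330.6 CPM in control, 325.3, 322.0 and 326.3 CPM with SAHA and 273.6, 274.6 and 273.3 CPM with Smarcb1-RE. SAHA and control libraries overlapped, whereas all Smarcb1-RE libraries were below both. For Suz12 the log2 fold change was -0.01 (SE 0.04, adjusted p = 0.791) with SAHA and -0.26 (SE 0.04, adjusted p = 8.11e-05) with Smarcb1-RE. The difference between treatments was -0.24 (SE 0.04, adjusted p = 0.000139). With library totals alone the Smarcb1-RE change was -0.10 against control and -0.09 against SAHA, and neither was called.

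Rbbp7 (chromosome X, 162760402 to 162779092, plus strand), a histone-binding subunit shared with the NuRD and SIN3 deacetylase complexes, showed the largest decrease of the 10 genes in Smarcb1-RE. Its level was 707.5, 714.8 and 684.6 CPM in control, 680.4, 649.3 and 657.6 CPM with SAHA and 354.0, 355.1 and 355.9 CPM with Smarcb1-RE. All Smarcb1-RE libraries were far below all others. The log2 fold change of Rbbp7 with Smarcb1-RE was -0.98 (SE 0.04, adjusted p = 1.52e-10, 1.98-fold lower), a larger change than that of 75.1% of tested genes. With SAHA it was -0.08 (SE 0.04, adjusted p = 0.0573), which was not called, although DESeq2 and the fits without control replicate 1, control replicate 3 or SAHA replicate 1 called it, at -0.08 to -0.11. Rbbp7 and Txlng overlap in exons on opposite strands, and the strand setting of the counting is not given in the sources used here.

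Rbbp4, the close relative of Rbbp7 in the same position of the complex, was 328.6, 328.4 and 324.9 CPM in control, 351.0, 345.0 and 343.9 CPM with SAHA and 312.7, 323.4 and 307.3 CPM with Smarcb1-RE. It was called in neither comparison with control, with log2 fold changes of 0.08 (SE 0.04, adjusted p = 0.0566) and -0.06 (SE 0.04, adjusted p = 0.157), the latter turning to 0.10 with library totals alone. The libraries of Rbbp4 did not overlap between groups, with SAHA highest. Smarcb1-RE was called lower than SAHA, at -0.14 (SE 0.04, adjusted p = 0.00322), a sign that changed with library totals alone. The ratio of Rbbp7 to Rbbp4 per kb of exon was 6.47, 6.54 and 6.33 in control, 5.83, 5.66 and 5.75 with SAHA and 3.4, 3.3 and 3.48 with Smarcb1-RE. In control the mean log2 ratio was 2.69, and 2.16 with the longest transcript in place of all exons. This ratio was chosen after the values were seen and is given without a test.

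**Figure D2:**
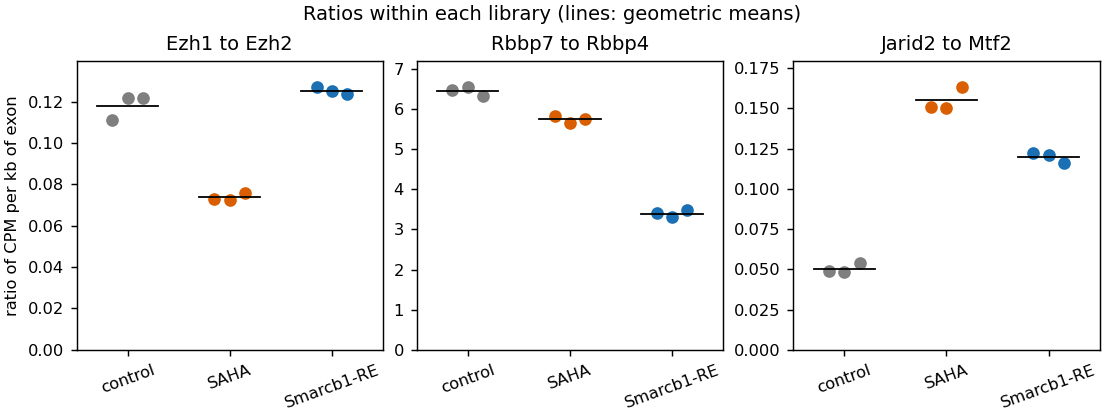
Ratio of the level per kb of exon of 2 genes within each library (y axis from 0, no unit), for Ezh1 to Ezh2, Rbbp7 to Rbbp4 and Jarid2 to Mtf2; points are libraries and lines are geometric means. The Ezh1 to Ezh2 ratio was lowest with SAHA (0.0727 to 0.0757), and the Rbbp7 to Rbbp4 ratio was lowest with Smarcb1-RE (3.3 to 3.48).

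Jarid2 (chromosome 13, 44729474 to 44921643, plus strand), an accessory subunit that helps bring the complex to chromatin, had the largest increase of the 10 genes with both perturbations. Its level was 7.06, 6.76 and 8.1 CPM in control, 21.4, 20.6 and 22.0 CPM with SAHA and 15.0, 14.3 and 14.1 CPM with Smarcb1-RE. The groups were fully separated, with SAHA highest. The log2 fold change of Jarid2 was 1.54 with SAHA (SE 0.08, adjusted p = 6.9e-09, 2.91-fold), more than that of 94.4% of tested genes, and 0.98 with Smarcb1-RE (SE 0.08, adjusted p = 1.37e-07, 1.98-fold). Smarcb1-RE stayed below SAHA by -0.56 (SE 0.07, adjusted p = 1.16e-05). The increase with SAHA remained within 1.49 to 1.62 on the log2 scale over all left-out libraries.

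Mtf2 (chromosome 5, 108065674 to 108109004, plus strand), a Polycomb-like protein of the alternative form, was 84.4, 82.2 and 88.5 CPM in control, 83.2, 80.4 and 79.1 CPM with SAHA and 71.7, 69.6 and 71.1 CPM with Smarcb1-RE. SAHA and control overlapped, and Smarcb1-RE lay below both. For Mtf2 the log2 fold change was -0.07 (SE 0.04, adjusted p = 0.149) with SAHA and -0.26 (SE 0.04, adjusted p = 7.93e-05) with Smarcb1-RE, the latter -0.11 and still called with library totals alone. Between the treatments it was -0.19 (SE 0.04, adjusted p = 0.00112), and -0.03 and not called with library totals alone. The ratio of Jarid2 to Mtf2 per kb of exon was 0.0491, 0.0483 and 0.0537 in control, 0.151, 0.15 and 0.163 with SAHA and 0.122, 0.121 and 0.116 with Smarcb1-RE. In control the mean log2 ratio was -4.31, and -4.58 with the longest transcript. This ratio was likewise chosen after the values were seen and is not tested. Exons of Mtf2 and of Tmed5 overlap on opposite strands.

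Phf19 (chromosome 2, 34893757 to 34914026, minus strand), a second Polycomb-like protein, was 50.6, 49.5 and 51.5 CPM in control, 43.1, 38.5 and 38.4 CPM with SAHA and 48.1, 49.3 and 48.3 CPM with Smarcb1-RE. SAHA libraries were the lowest, and the Smarcb1-RE libraries lay just below the controls. SAHA gave a log2 fold change of Phf19 of -0.34 (SE 0.05, adjusted p = 6.34e-05). With Smarcb1-RE it was -0.06 (SE 0.05, adjusted p = 0.302), and 0.10 with library totals alone. The difference between Smarcb1-RE and SAHA was called, at 0.28 (SE 0.05, adjusted p = 0.000244), and was 0.44 with library totals alone.

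Kdm6a (chromosome X, 18162575 to 18279936, plus strand), a demethylase that is also part of the MLL3 and MLL4 methyltransferase complexes, was 37.0, 36.4 and 41.6 CPM in control, 42.5, 40.7 and 41.3 CPM with SAHA and 50.3, 49.6 and 47.2 CPM with Smarcb1-RE. SAHA overlapped control through control replicate 3, and all Smarcb1-RE libraries were above both. With Smarcb1-RE Kdm6a was higher by 0.36 on the log2 scale (SE 0.06, adjusted p = 6.19e-05). With SAHA the log2 fold change was 0.12 (SE 0.06, adjusted p = 0.0822), which was called without control replicate 3 (0.18), with thinned counts (0.14) and with at least 10 counts required in every library (0.15). The difference between the treatments was 0.24 (SE 0.05, adjusted p = 0.00155), and 0.40 with library totals alone.

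Kdm6b (chromosome 11, 69398508 to 69413675, minus strand), a demethylase known for its induction by inflammatory and differentiation signals, was 43.4, 53.2 and 55.9 CPM in control, 78.3, 75.5 and 76.5 CPM with SAHA and 64.2, 72.5 and 65.8 CPM with Smarcb1-RE. The groups did not overlap, although the control libraries of Kdm6b were widely spread. Its log2 fold change was 0.59 with SAHA (SE 0.08, adjusted p = 2.32e-05, 1.51-fold) and 0.41 with Smarcb1-RE (SE 0.08, adjusted p = 0.000409). Between the treatments it was -0.19 (SE 0.08, adjusted p = 0.0436), a call that 5 of 9 left-out fits and library totals alone (-0.03) did not give. The increase with Smarcb1-RE ranged from 0.30 to 0.47 on the log2 scale when single libraries were left out.

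Set directly against SAHA, Smarcb1-RE was higher for 3 of the 10 genes (Ezh1, Phf19 and Kdm6a) and lower for the other 7, against a background of 74.6% of tested genes called (37.7% higher and 36.8% lower). The libraries of these groups did not overlap for any of the 10, as for 80.0% of all tested genes. The 3 higher genes had log2 fold changes of 0.36, 0.28 and 0.24. The largest difference was that of Rbbp7, at -0.90 (SE 0.04, adjusted p = 3.54e-10), followed by Jarid2 and Ezh2. With library totals alone only 3 of the 7 remained called as lower, and the median of all genes shifted to 0.18 on the log2 scale for Smarcb1-RE against SAHA and to 0.17 against control.

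**Figure D3:**
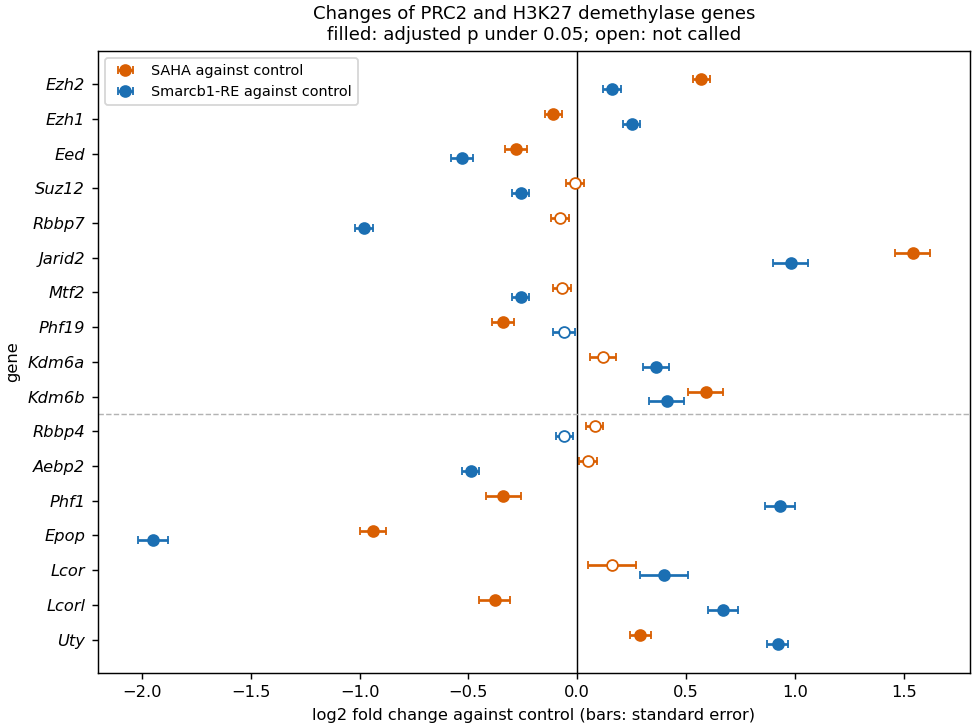
Log2 fold change against control (x axis) of the 10 genes, above the dashed line, and of 7 further PRC2 and demethylase genes, below it, with SAHA and with Smarcb1-RE; bars are standard errors, and filled points have an adjusted p under 0.05 (edgeR). Jarid2 has the highest value (1.54 with SAHA) and Epop the lowest (-1.95 with Smarcb1-RE).

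The remaining known PRC2 and demethylase genes were given for context. Of 8 listed genes, 7 could be tested, and Ezhip had 0 counts in all 9 libraries. With SAHA, 1 was higher (Uty) and 3 were lower (Phf1, Epop and Lcorl). With Smarcb1-RE, 4 were higher (Phf1, Lcor, Lcorl and Uty) and 2 were lower (Aebp2 and Epop). These are 4 and 6 of the 7 called, near the background of 66.9% and 77.8% of all tested genes. Their median log2 fold change was 0.05 with SAHA and 0.40 with Smarcb1-RE.

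Epop, an accessory protein of the Polycomb-like form, measured 90.4, 81.0 and 78.8 CPM in control, 47.2, 40.1 and 42.8 CPM with SAHA and 21.6, 21.6 and 21.4 CPM with Smarcb1-RE. The groups of Epop stood in 3 separate steps. Its log2 fold change was -0.94 (SE 0.06, adjusted p = 6.73e-08) with SAHA and -1.95 (SE 0.07, adjusted p = 9.25e-11) with Smarcb1-RE. Phf1, the third Polycomb-like protein, measured 19.0, 15.8 and 17.1 CPM in control, 13.0, 14.6 and 13.2 CPM with SAHA and 34.0, 32.5 and 32.6 CPM with Smarcb1-RE. Phf1 thus fell with SAHA, with a log2 fold change of -0.34 (SE 0.08, adjusted p = 0.00146), and rose with Smarcb1-RE, at 0.93 (SE 0.07, adjusted p = 6.84e-08). The 3 Polycomb-like genes therefore differed in direction in Smarcb1-RE, where Phf1 was higher, Mtf2 lower and Phf19 not called.

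Aebp2, the partner of Jarid2 in its form of the complex, fell with Smarcb1-RE, from 471.2, 483.2 and 478.4 CPM in control to 351.9, 331.7 and 339.9 CPM (log2 fold change -0.49, SE 0.04, adjusted p = 1.18e-07). With SAHA Aebp2 was at 510.5, 490.0 and 486.7 CPM, a log2 fold change of 0.05 (SE 0.04, adjusted p = 0.234), and Smarcb1-RE lay below SAHA by -0.54 (SE 0.04, adjusted p = 5.01e-08). Jarid2 and Aebp2 thus moved in opposite directions in Smarcb1-RE. Uty, the Y-linked relative of Kdm6a, rose in both comparisons, with log2 fold changes of 0.29 (SE 0.05, adjusted p = 0.000411) and 0.92 (SE 0.05, adjusted p = 5.65e-09). Lcorl, a subunit of the Polycomb-like form, fell with SAHA (log2 fold change -0.38, SE 0.07, adjusted p = 0.000596) and rose with Smarcb1-RE (0.67, SE 0.07, adjusted p = 1.5e-06). Lcor was higher with Smarcb1-RE, at 0.40 (SE 0.11, adjusted p = 0.00447), and had a log2 fold change of 0.16 (SE 0.11, adjusted p = 0.215) with SAHA.

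Developmental regulators that PRC2 is known to silence were counted beside the complex. Of 71 listed genes, 27 had at most 3 counts in every library and 33 could be tested. With SAHA, 14 of the 33 were higher, 3 lower and 16 not called, and with Smarcb1-RE, 24 were higher, 1 lower and 8 not called. Their median log2 fold change was 0.47 and 1.01, beside 0.00 and 0.01 over all tested genes. Of all tested genes, 32.6% were higher and 34.3% lower with SAHA, and 39.2% higher and 38.6% lower with Smarcb1-RE. A gene that is silent in control could enter the test only by being expressed in another group, so these counts and the medians of the list are not evidence of direction for the whole list. Members of the Dlx family of homeobox genes had some of the largest changes. Dlx1 measured 1.62, 1.23 and 1.36 CPM in control, 2.12, 2.34 and 2.54 CPM with SAHA and 17.4, 18.1 and 17.8 CPM with Smarcb1-RE, a log2 fold change of 3.66 in the latter (SE 0.12, adjusted p = 4.02e-11).

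Dlx2 rose with Smarcb1-RE by 3.15 on the log2 scale (SE 0.16, adjusted p = 1.9e-09) and had a log2 fold change of -0.24 (SE 0.21, adjusted p = 0.332) with SAHA. En1 likewise rose with Smarcb1-RE, at 2.97 (SE 0.28, adjusted p = 7.27e-07), whereas its value with SAHA was -0.14 (SE 0.36, adjusted p = 0.756). Lhx5 had 29, 48 and 46 counts with SAHA, 4, 4 and 3 in control and 13, 7 and 8 with Smarcb1-RE. Because Lhx5 passed the filter only through its SAHA libraries, its higher level there is not evidence of direction. The genes that fell, named after their values were seen, were Hoxd10, Pax3 and Irx3 with SAHA and Cdkn2a with Smarcb1-RE. With Smarcb1-RE, Hoxd10 and Pax3 were called higher (log2 fold changes of 1.41 and 0.51), and Irx3 was not called (0.47). The decrease of Pax3 with SAHA was -0.19 (SE 0.07, adjusted p = 0.0382), and its SAHA and control libraries overlapped. This decrease was not called by DESeq2 (-0.18) or without control replicate 2, control replicate 3, SAHA replicate 1 or SAHA replicate 2. Cdkn2a, which encodes inhibitors of the cell cycle, had a log2 fold change of -0.33 (SE 0.06, adjusted p = 0.000221) with Smarcb1-RE and 0.47 (SE 0.06, adjusted p = 1.27e-05) with SAHA.

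**Figure D4:**
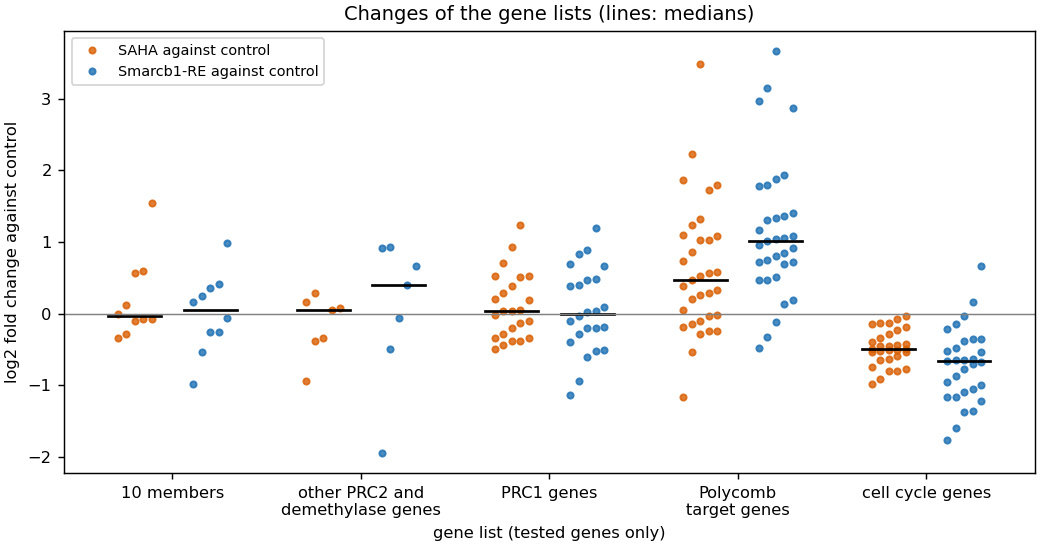
Log2 fold change against control (y axis) of every tested gene in 5 gene lists (x axis), with SAHA and with Smarcb1-RE; points are genes and lines are medians. The 10 PRC2 and demethylase genes spread around 0 (medians -0.04 and 0.05), the tested Polycomb target genes lie mostly above 0 (0.47 and 1.01) and the cell cycle genes mostly below it (-0.50 and -0.66). A target gene that is silent in control could enter the test only through another group, so the medians of that list are not evidence of direction.

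Ezh2 and Eed are known E2F-regulated genes in other cells, and genes of the cell cycle were therefore set beside them. Of 30 cell cycle genes, 28 were lower with SAHA and 0 higher, the exceptions, which were not called, being Ccne1 and Mcm6. With Smarcb1-RE 26 were lower and 1, E2f2, was higher, and Mki67, Ccne2 and E2f7 were not called. The study reports slower growth of the re-expressing cells but no effect on their cell cycle, and its assays measured cells and not RNA levels. The medians of the list were -0.50 and -0.66. Among all tested genes, 34.3% were lower and 32.6% higher with SAHA, and 38.6% lower and 39.2% higher with Smarcb1-RE. Ezh2 was higher and Eed lower in both comparisons. The promoter entry of Eed held none of the searched E2F letters, and such a search cannot show whether E2F acts on Eed. The part of E2F or of the cell cycle in these values was not tested. Ccnb1, a mitotic cyclin, had a log2 fold change of -0.63 (SE 0.04, adjusted p = 6.99e-08) with SAHA and of -1.60 (SE 0.04, adjusted p = 1.49e-11) with Smarcb1-RE.

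Of the other leading cell cycle genes, Plk1, a mitotic kinase, had log2 fold changes of -0.75 and -1.76. Ccnb2 stood at -0.80 and -1.38 and the replication helicase subunit Mcm5 at -0.77 and -1.36, all called with both perturbations. The activating E2F genes differed among themselves. E2f1 was at -0.65 with SAHA and -0.48 with Smarcb1-RE, and E2f3 at -0.54 and -0.87. E2f2 had a log2 fold change of -0.13 (SE 0.04, adjusted p = 0.0106) with SAHA and of 0.67 (SE 0.04, adjusted p = 7.47e-09) with Smarcb1-RE. Of the 3 promoters with E2F letters shown above, the gene was higher in both comparisons for Ezh2, called lower with Smarcb1-RE and not called with SAHA for Suz12, and called lower with SAHA and not called with Smarcb1-RE for Phf19. A link between the letters and these changes was not tested. The E2F genes, Ccne1, Ccne2, Mcm6 and Mki67 were named after their values were seen.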

How the data were processed

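RNA was measured in 9 bulk libraries of the T15 line (3 control, 3 SAHA, 3 Smarcb1-RE), prepared with a directional kit. The deposited table holds estimated counts per gene that the authors made before any normalization. The submitters' processing notes name Salmon 0.14.1, DESeq2 1.22.2 and GRCm38. Of the values above 0, 52.4% were not whole, and all were rounded to whole numbers.

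Counts were tested with edgeR 4.0.16 (R 4.3.3): genes were filtered with filterByExpr (minimum count 10), scaled by TMM, and fitted over the 3 groups together with glmQLFit and glmQLFTest. Calls used a Benjamini-Hochberg adjusted p under 0.05 over all 13697 genes. CPM uses TMM-scaled totals. Gene positions and exon lengths came from GENCODE M21, in which 99.5% of the identifiers were found. The methods call the replicates biological; nothing states whether they came from separate cultures grown in parallel, so p-values measure the spread between these libraries. Counting error alone sets the limit of 3 counts.

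The 10 genes and all gene lists were chosen with earlier results of these data known. From each wider list the up to 4 genes with the largest change were named, plus every other PRC2 and demethylase gene. Also named were the 3 protein-coding genes most similar to Ezh2, Ezh1 and Kdm6b. Apart from Smarcb1, Pecam1, Cd4, Cd2, Cd5, Thy1 and the overlapping genes Txlng and Tmed5, genes outside this rule are marked as such. Alternatives were DESeq2 1.42.0, RLE scaling, library totals only, other filters and thresholds, separate fits, thinned counts, a replicate block and leaving out each library.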

Additional observations from a re-analysis of the deposited data

How the results depend on the processing

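Over the alternatives, 515 of 570 values of the 10 genes kept direction and call, 45 lost the call, 7 gained it and 3 changed sign. The stricter adjusted p and the minimum absolute fold change reuse the main fit, so under them a call could only be lost. The changes of sign were of uncalled values: Suz12 with SAHA was 0.02 with at least 10 counts in every library and without control replicate 2 (from -0.05 to 0.02 over all left-out libraries), and Phf19 with Smarcb1-RE was 0.10 with library totals only. Of the other named genes, with library totals only Rbbp4 was 0.10 in Smarcb1-RE against control and 0.02 against SAHA, Ccne2 with Smarcb1-RE was 0.02 and Mki67 0.13. Mki67 was also 0.03 with at least 10 counts in every library and without control replicate 3 (from -0.09 to 0.03 over all left-out libraries). En1 with SAHA was 0.01 without control replicate 3 and 0.17 without SAHA replicate 3 (from -0.54 to 0.17).

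Requiring an absolute log2 fold change of 1 left 1 of the 10 genes higher and 0 lower with SAHA, and 0 higher and 0 lower with Smarcb1-RE against control and against SAHA. It left 0 higher and 0 lower (SAHA) and 0 higher and 1 lower (Smarcb1-RE) of the other PRC2 and demethylase genes, and 1 higher and 0 lower, and 1 higher and 1 lower, of the PRC1 genes. It left 1 target gene lower with SAHA and 0 with Smarcb1-RE, and of the cell cycle genes 0 lower with SAHA, and 0 higher and 10 lower with Smarcb1-RE. With library totals only, 3 of the 10 genes were lower in Smarcb1-RE than in SAHA, 6 PRC1 genes were lower and 2 cell cycle genes higher with Smarcb1-RE, and 61.0% of calls over all genes were higher with Smarcb1-RE than in control, beside 50.4%; against SAHA the share was 62.1%, beside 50.6%. With DESeq2, RLE scaling, at least 10 counts in every library or thinned counts, 2 other PRC2 and demethylase genes were higher with SAHA. With at least 10 counts in every library, 9 target genes were higher with SAHA and 2 cell cycle genes higher with Smarcb1-RE, and with no filter 3 target genes were lower with Smarcb1-RE.

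Leaving out single libraries gave 1 to 2 other PRC2 and demethylase genes higher with SAHA, 2 to 6 target genes lower with SAHA and 1 to 2 lower with Smarcb1-RE. The highest of the first pair of counts came without control replicate 1, and the last was 2 without any one library other than control replicate 3. The labels' replicate numbers did not pair the libraries: same-numbered libraries correlated between -0.072 and 0.037 in their deviations from the group means, and differently numbered ones between -0.036 and 0.051. With the replicate block, 2 of the 10 genes were lower with SAHA and 2 cell cycle genes were higher with Smarcb1-RE, and the other counts of calls of the gene lists above were unchanged. The causes of these shifts were not tested.

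The log2 values of 3 libraries against 3 limit small differences, with standard errors of 0.04 to 0.08 for the 10 genes.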

Other observations

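PRC1 complexes bind or act beside the H3K27 mark. Of 24 PRC1 genes, 10 were higher and 8 lower with SAHA, and 9 were higher and 10 lower with Smarcb1-RE, with median log2 fold changes of 0.04 and 0.00, so that the share called lay near that of all tested genes (66.9% and 77.8%). Bcorl1, a subunit of a variant PRC1, was 21.4, 24.7 and 25.0 CPM in control, 51.5, 56.2 and 60.5 CPM with SAHA and 16.9, 17.1 and 16.1 CPM with Smarcb1-RE. It was thus higher with SAHA (log2 fold change 1.24, SE 0.07, adjusted p = 1.67e-08, edgeR) and lower with Smarcb1-RE (-0.51, SE 0.08, adjusted p = 6.38e-05). L3mbtl2, a subunit of another variant complex, was lower with both, at -0.34 (SE 0.03, adjusted p = 2.23e-06) and -1.14 (SE 0.04, adjusted p = 3.77e-11). Scmh1, a Polycomb protein, was higher with both, at 0.28 (SE 0.09, adjusted p = 0.0164) and 1.20 (SE 0.09, adjusted p = 5.35e-08), the former not called without control replicate 2 or SAHA replicate 3. Pcgf3 was lower with both, at -0.34 (SE 0.06, adjusted p = 0.000285) and -0.94 (SE 0.06, adjusted p = 2.71e-08).

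Some genes followed the pattern of Ezh2, Ezh1 or Kdm6b over the 9 libraries, as measured by Pearson's r of log2 CPM among 10724 protein-coding genes. The libraries share 3 group levels, so that r mostly reads the order of the groups. For Ezh2 the closest were Plpp2 (r = 0.997), Sdf2 (0.996) and Myo1a (0.995). For Ezh1 they were Frmd4a (0.994), Zfp623 (0.991) and Abr (0.99), and for Kdm6b Ikzf3 (0.98), S1pr2 (0.98) and Svil (0.979).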
